A study of Ovis aries with 42 samples.

Results

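RNA from the pars tuberalis (PT) was compared with RNA from the hypothalamus (HT) in anestrus, the season in which ewes do not ovulate. The comparison took the 7 libraries labelled pars tuberalis and anestrous (library numbers 36 to 42) and the 7 labelled hypothalamus and anestrous (15 to 21), which are 14 of the 42 libraries of the study. All libraries came from adult female sheep of the Rasa Aragonesa breed, and no treatment, genotype or age beyond "adult" is named in the labels. The other 28 libraries, 7 for each tissue in the luteal phase and 7 for each in the follicular phase, served to show where anestrus differed. They also entered the same fit, and so took part in the filter, the scaling and the estimate of spread. This holds for the edgeR p-values in anestrus, except where a fit of the 14 libraries alone is named. Whether each of the 7 libraries in a group stands for its own ewe is not stated in the labels. The p-values therefore measure the spread between these samples, which may in part be technical.

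The hypothalamus is brain tissue, made of neurons and glia, and its neurons release the peptide that drives the gonadotrophs of the pituitary. The pars tuberalis is the thin sheet of pituitary tissue on the median eminence and stalk, and its endocrine cells carry melatonin receptors through which day length reaches the reproductive axis. In sheep and other seasonal mammals, thyrotropin from the pars tuberalis acts on tanycytes of the adjoining hypothalamus and changes the local supply of thyroid hormone.

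Expression was given as counts per Ensembl sheep gene ID, here called a feature. Gene names are not paired with the IDs in the deposited table, and the RefSeq gene table at hand matched 0 of the 27054 IDs. Gene families, pathways and cell type markers were therefore not tested, no sequence is shown, and the tissue labels could not be set against marker genes. In bulk tissue, fewer cells of a type and less RNA per cell cannot be told apart, and this holds for every difference below.

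Total counts ran from 21483731 to 33586399 in HT and from 14649356 to 28376173 in PT. Of the HT libraries, number 15 held the most counts and the smallest share of counts in its 10 largest features (14.8%, against 24.9% to 40.8% in the other 6). HT library 17 lay nearest to PT in its profile, and HT library 19 held 2 features at levels far above the other libraries. Some values named here moved when libraries 15, 17 or 19 were left out, and several of these are also given without them. No anestrous library looked like a second deposit of another one. The closest pair, HT libraries 18 and 21, differed well beyond sampling noise (chi-square divided by its degrees of freedom 42.4, from 15441 features).

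Most of the features tested differed between the tissues in anestrus. Of 17296 features with enough counts to test, 9641 (55.7%) passed edgeR's quasi-likelihood test of a tissue difference (Benjamini-Hochberg adjusted p under 0.05). PT was higher for 4382 of them and HT for 5259. The median difference over all tested features was -0.07 on the log2 scale (PT minus HT). It was -0.026 without HT library 15, -0.032 without HT library 19 and 0.004 without HT libraries 15, 17 and 19. The scaling of the libraries (TMM) takes most features as unchanged. A median near 0 is thus largely set by the scaling and does not measure a shift of all features together. With all libraries, the median size of the difference, whatever its direction, was 0.67, with a median standard error of 0.25.

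The large differences lay more often on the hypothalamic side. A test against a 2-fold difference called 2769 features (16% of those tested), 929 higher in PT and 1840 higher in HT, so 33.55% of the calls were PT-higher. The fitted difference was over 4-fold for 636 PT-higher and 1363 HT-higher calls, and over 8-fold for 345 and 767. It was over 32-fold for 101 and 240, but 50 of these 101 and 74 of these 240 had no count in any of the 7 libraries of the lower tissue, so that the size of their fitted fold is set by a small constant and not by the data. That left 51 PT-higher and 166 HT-higher calls over 32-fold with counts in both tissues. The PT-higher share of the 2-fold calls was 37.62% in the luteal and 37.86% in the follicular comparison. Leaving out HT libraries 15, 17 and 19 together took it to 39.4% in anestrus, with 1102 PT-higher and 1698 HT-higher calls.

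Separation of single libraries asks for no minimum size of difference, and its count leaned less to HT than the 2-fold calls did. The test against no difference asks for none either, and 45.5% of its calls were PT-higher. For 1821 features (10.5%) every PT library lay above every HT library, and for 2153 (12.4%) every HT library lay above every PT library. Among the 2-fold calls, 748 of the 929 PT-higher features (80.5%) and 1338 of the 1840 HT-higher features (72.7%) did not overlap. Some 2-fold calls were not kept when an anestrous library was left out. The number lost ran from 75 (without HT library 17) to 338 (without HT library 15) of the 2769 calls. It was 292 without HT library 20 and 269 without PT library 38. For a few 2-fold calls the group medians lay less than 2-fold apart. Of the HT-higher calls, 28 (1.52%) had group medians less than 2-fold apart, and the highest library was number 20 for 8 of them, 17 for 7, 15 for 6 and 19 for 5. Only 2 PT-higher calls (0.215%) were of this kind.

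The calls covered the whole range of levels. Level is given as CPM, counts scaled to the TMM-adjusted size of the library, averaged over the 14 libraries. Among 1534 features at 100 CPM or more, 89 were called higher in PT and 147 higher in HT by the 2-fold test (15.4% together). Among 7394 features from 10 to 100 CPM the calls were 338 and 683 (13.8%), and among 6030 features from 1 to 10 CPM they were 340 and 768 (18.4%). The 2338 features under 1 CPM gave 162 and 242 calls (17.3%), with a median standard error of 0.79 on the log2 scale against 0.17 for the most abundant features. HT-higher calls outnumbered PT-higher ones in all 4 classes. A large fitted difference was not always called, since 346 of 2345 features fitted over 4-fold apart did not pass the 2-fold test.

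**Figure D1:**
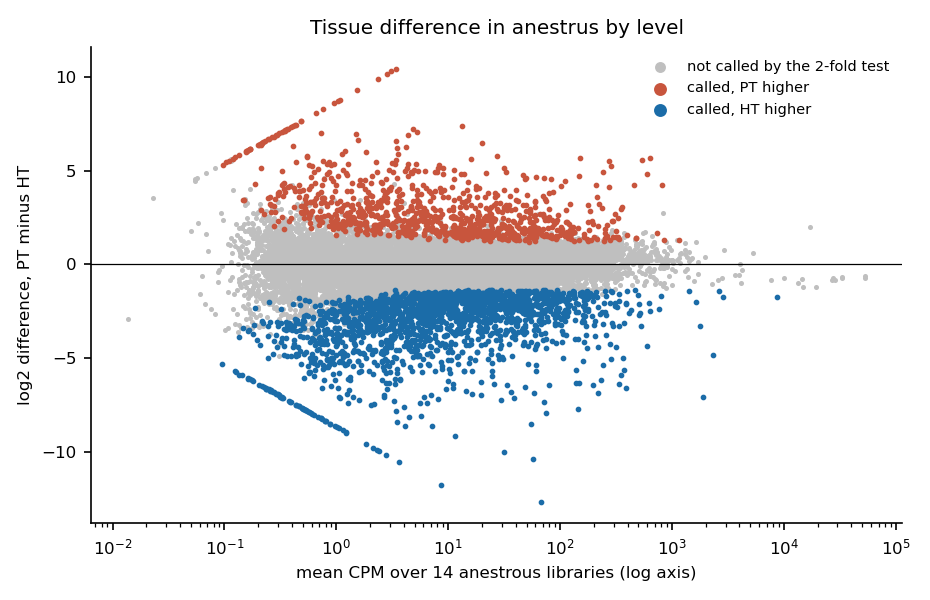
Each point is one of 17296 features, with its mean CPM over the 14 anestrous libraries (log axis) against the fitted log2 difference, PT minus HT. Red and blue points are the 929 PT-higher and 1840 HT-higher features called by edgeR's test against a 2-fold difference, and the straight edges at low CPM are features with no count in one tissue, whose fitted fold is set by a small constant.

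Few features were present throughout one tissue and without a count in the other. In PT, 2 features had at least 1 CPM in all 7 libraries and 0 counts in all 7 HT libraries. A floor of 3 counts over the 7 HT libraries together corresponds to 0.0185 CPM, so these 2 features were at least 167-fold and at least 306-fold higher in PT. In HT, 4 features met the same rule with 0 counts in PT, at least 130-fold to at least 454-fold higher. These bounds cover counting error only. Neither of the 2 PT features was at 0 in all 14 luteal and follicular HT libraries, and of the 4 HT features 1 was at 0 in all 14 luteal and follicular PT libraries. No such feature was abundant, the highest mean level being 5.66 CPM in PT and 7.31 CPM in HT.

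The features with the largest difference in level, among 2-fold calls without overlap, showed the contrast at single libraries. ENSOARG00000009311 was at 3413 CPM in the lowest, 4018 in the median and 5659 in the highest HT library, and at 85.5, 138 and 229 CPM in PT. The lowest HT library was thus far above the highest PT library, and the values within each tissue lay close together. The mean was 4522 ± 962 CPM in HT and 161 ± 60.0 CPM in PT (SD, n = 7 each), a 28.1-fold difference (log2 -4.81 ± 0.31 SE; edgeR's 2-fold test, adjusted p = 2.69e-13).

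ENSOARG00000004374 was the other feature of this kind on the HT side. Its lowest, median and highest values were 1302, 3338 and 6925 CPM in HT and 4.74, 12.5 and 115 CPM in PT. PT library 42 held the 115 CPM, and the next PT library was at 26.7 CPM. HT was 133-fold higher (log2 -7.06 ± 0.81 SE; edgeR's 2-fold test, adjusted p = 2.77e-08). The log2 difference of ENSOARG00000004374 was -8.10 without PT library 42 and -7.92 by limma-voom.

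On the PT side, ENSOARG00000007112 ranged from 798 to 2146 CPM in PT with a median of 962 CPM. In HT it ran from 1.28 to 89.4 CPM with a median of 5.12 CPM, and HT libraries 16 and 17 (58.2 and 89.4 CPM) stood above the other 5, which were at 8.01 CPM or less. PT was 51.5-fold higher (log2 5.69 ± 0.95 SE; edgeR's 2-fold test, adjusted p = 3.77e-05). The log2 difference of ENSOARG00000007112 was 6.58 without HT library 17 and 7.09 by limma-voom.

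ENSOARG00000013153 was the more variable of the PT-higher pair. It ran from 856 to 2985 CPM in PT, with a median of 1384 CPM, and from 1.81 to 186 CPM in HT, with a median of 80.9 CPM. HT libraries 18 and 20 were at 1.81 and 3.12 CPM while the other 5 were at 51.6 CPM or more, so the highest and lowest HT values were further apart in fold than the means of the tissues. PT was 18.7-fold higher (log2 4.22 ± 0.98 SE; edgeR's 2-fold test, adjusted p = 0.00314), and the log2 difference by limma-voom was 5.70. These 4 features kept their direction and their call in all 22 alternative settings.

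**Figure D2:**
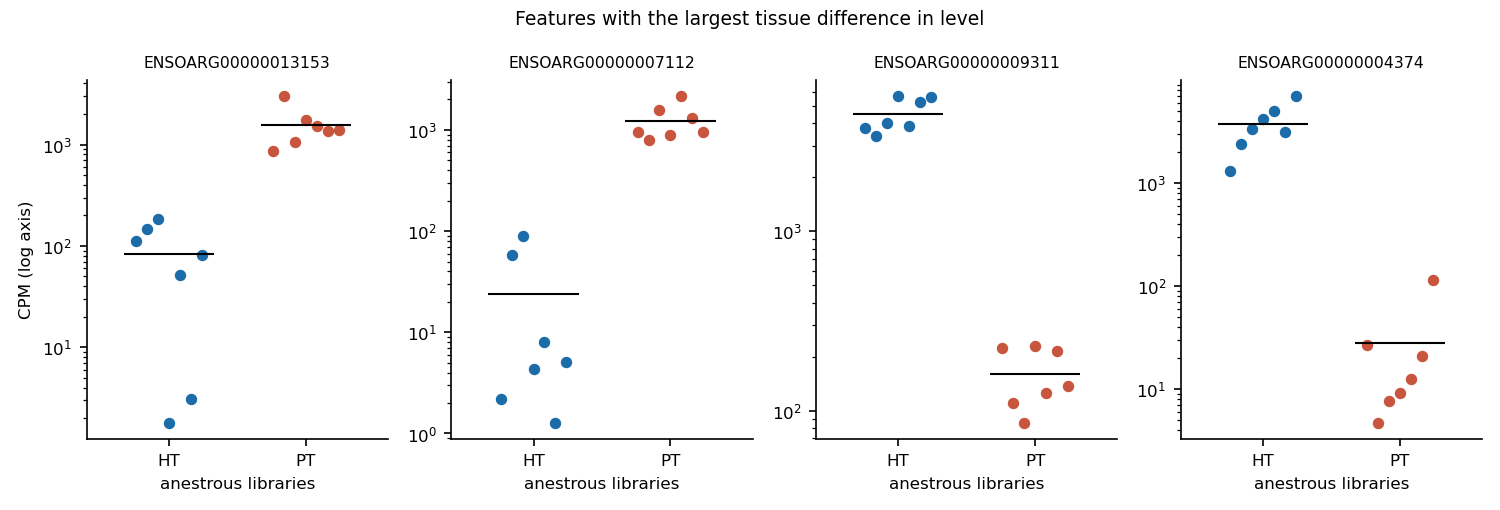
CPM (log axis) of 4 features in each anestrous library, HT in blue and PT in red, with a line at the mean of 7 libraries. Both features on the left are higher in every PT library and both on the right in every HT library, and for ENSOARG00000013153 and ENSOARG00000007112 the HT values spread over more than a factor of 10.

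The same 4 features differed between the tissues in the other phases with the same sign. The log2 difference of ENSOARG00000009311 was -4.03 in the luteal and -5.21 in the follicular phase, and that of ENSOARG00000004374 was -7.08 and -7.41. For ENSOARG00000007112 it was 6.24 and 6.85. For ENSOARG00000013153 it was 2.50 and 2.91, and the 2-fold test gave an edgeR adjusted p of 0.113 in the luteal and 0.0432 in the follicular phase. In the cycling HT libraries ENSOARG00000013153 ran from 0.162 to 924 CPM in the luteal phase (median 89.9) and from 9.54 to 878 CPM in the follicular phase (median 76.8). The anestrous difference of this feature exceeded the mean of the other phases by 1.52 ± 1.06 SE on the log2 scale (95% interval -0.62 to 3.65; edgeR adjusted p = 0.910), so the tissue difference of ENSOARG00000013153 was not shown to depend on phase.

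Most of the tissue difference seen in anestrus was present in libraries from the cycling phases. To read this from separate samples, features higher in either tissue were called by the 2-fold test in the 28 luteal and follicular libraries alone and then looked up in a fit of the 14 anestrous libraries alone. In that fit the 2-fold test called 4.63% of all 15992 features PT-higher and 9.54% HT-higher, and the test against no difference called 22.9% and 28.5%. Of 1512 features called PT-higher in the cycling phases, 1359 were testable in anestrus and 1343 of these had the same sign. The test against no difference called 1166 in the same direction (85.8%, beside 22.9% of all features) and 1 in the opposite one, and the 2-fold test called 663 (48.8% of those testable), which is 43.8% of the cycling list and 89.5% of the 741 anestrous PT-higher calls.

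The HT-higher features were called again at a larger share, but HT-higher calls were also more common among all features. Of 2155 called in the cycling phases, 1931 were testable in anestrus, 1928 had the same sign, and 1885 (97.6%, beside 28.5% of all features) were called in the same direction with 0 in the opposite one. The 2-fold test called 1393 (72.1% of those testable, beside 9.54% of all features), which is 64.6% of the cycling list and 91.3% of the 1525 anestrous HT-higher calls. For the PT-higher list it was 48.8% beside 4.63%. The median log2 difference of the HT-higher list was -2.19 in anestrus and -2.21 in the cycling fit, while that of the PT-higher list was 1.69 and 2.04. Both lists were chosen on the cycling values, which favours larger values there. In log2 CPM averaged over libraries, the PT-higher list stood at a median difference of 2.03 in anestrus, 2.19 in the luteal and 2.30 in the follicular phase. With 1 anestrous library left out, the anestrous value ran from 1.92 (without HT library 20) to 2.17 (without HT library 17). The HT-higher list stood at -2.28, -2.25 and -2.50 in the same order of phases. Across 15982 features tested in both fits, the anestrous and cycling differences had a Pearson correlation of 0.93 and a Spearman correlation of 0.92, given as a description since features are not independent replicates.

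**Figure D3:**
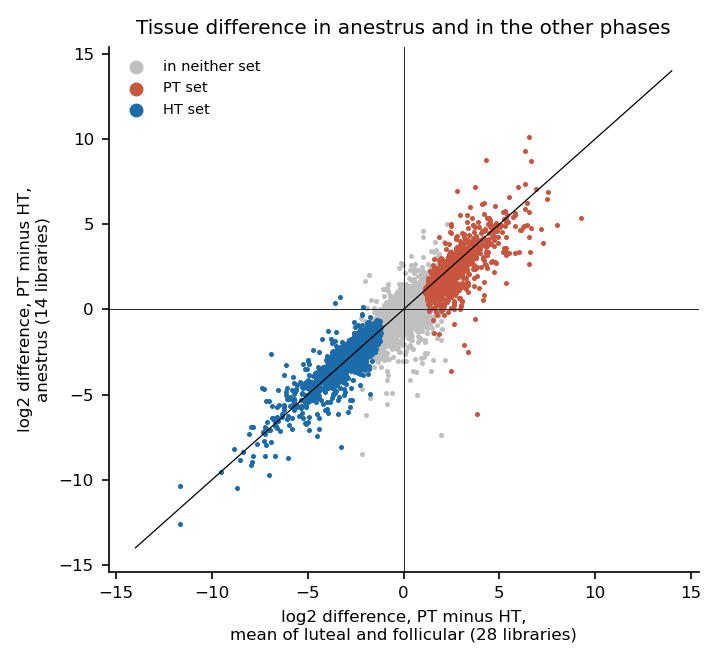
Log2 difference between tissues (PT minus HT) of each feature in the 28 luteal and follicular libraries (horizontal) and in the 14 anestrous libraries (vertical), with the line of equality. Red points are features called PT-higher and blue points those called HT-higher in the cycling phases, of which 16 and 3 had the opposite sign in anestrus.

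Counted within the fit of all 42 libraries, 7508 of the 9641 anestrous calls (77.9%) were also called in the same direction in both other phases. Of all 17296 features, 48.9% were called in both other phases in 1 shared direction. Another 929 (9.64%) were called in neither, and 19 were called in the opposite direction in at least one. With the 2-fold test, 1969 of 2769 (71.1%) were called in the same direction in both other phases, 378 (13.7%) in neither and 0 in the opposite direction, where 13.2% of all features were called by it in both other phases. Passing in one phase and not in another does not show a difference, which needs the test of the difference itself.

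That test called no feature. The tissue difference in anestrus, minus the mean of the tissue differences in the luteal and follicular phases, gave 0 calls by edgeR's quasi-likelihood test, with 1001 features at an unadjusted p under 0.05 (5% of the tested features is 865) and a lowest adjusted p of 0.101. Of the 1001, the difference moved towards PT in anestrus for 335 and towards HT for 666. Against the luteal phase alone there were 0 calls and 719 features at an unadjusted p under 0.05, and against the follicular phase alone 0 calls and 1154. The median standard error of the contrast with both phases was 0.298 on the log2 scale. DESeq2 called 37 features for this contrast and limma-voom 0. The edgeR count also moved with single libraries, to 33 without HT library 15, 2 without HT library 16, 5 without HT library 18 or 20, 4 without HT library 21 and 1 without PT library 36, and it was 5 without HT libraries 15, 17 and 19. Without HT library 15 the features at an unadjusted p under 0.05 numbered 2260 against both phases, 1194 against luteal and 2589 against follicular, with 0 edgeR calls against luteal and 47 against follicular.

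The features nearest to a call are given as values. ENSOARG00000013216 was higher in HT in every phase, with the narrowest tissue difference in anestrus. In HT its lowest, median and highest anestrous values were 1.93, 3.68 and 15.4 CPM, the highest in library 15, and in PT they were 0.0763, 0.467 and 1.37 CPM, so the tissues did not overlap. PT held 0.610 ± 0.452 CPM in anestrus, 0.283 ± 0.186 CPM in the luteal and 0.0395 ± 0.0735 CPM in the follicular phase (SD, n = 7 each), against 5.83 ± 5.10, 7.37 ± 3.10 and 8.28 ± 3.77 CPM in HT. The log2 tissue difference was -3.25 in anestrus (edgeR's 2-fold test, adjusted p = 0.000133), -4.73 in the luteal and -7.55 in the follicular phase. In follicular PT the median was 0 CPM and the highest count in a library was 5, so the follicular difference rests on few counts. The anestrous difference was 2.89 ± 0.68 SE above the mean of the other phases (95% interval 1.52 to 4.26; edgeR adjusted p = 0.186). It was 1.48 above the luteal one (95% interval -0.015 to 2.97) and 4.30 above the follicular one. DESeq2 (adjusted p = 0.0124) and edgeR without library 15 (adjusted p = 0.0232) called the shift from the mean of both phases.

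ENSOARG00000001727 showed the same arrangement at a higher level. In anestrus it ran from 9.54 to 22.8 CPM in HT (median 12.4) and from 3.91 to 11.8 CPM in PT (median 8.31), and the ranges overlapped. The anestrous log2 difference was -0.78 ± 0.23 SE (edgeR adjusted p = 0.00404), against -1.40 in the luteal and -2.49 in the follicular phase. The shift from the mean of those phases was 1.16 ± 0.28 SE (95% interval 0.59 to 1.73; edgeR adjusted p = 0.192). DESeq2 called it (adjusted p = 0.0321), as did edgeR without library 15 (adjusted p = 0.0371).

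On the opposite side stood 2 features whose anestrous value was carried by 1 library. ENSOARG00000006630 was at 2046 CPM in HT library 19 and between 11.5 and 34.4 CPM in the other 6 HT libraries, beside 13.8 to 24.8 CPM in PT. With all libraries it was called HT-higher in anestrus (log2 -4.14 ± 0.78 SE; edgeR's 2-fold test, adjusted p = 0.000368), but not by DESeq2 (log2 -0.12) or limma-voom (log2 -1.30), each with an adjusted p of 1. Without library 19 the difference was -0.11 and the adjusted p was 1. In the luteal and follicular phases the difference was 0.11 and 0.45.

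ENSOARG00000020448 changed its direction with the same library. It was at 936 CPM in HT library 19, between 0.331 and 7.51 CPM in the other 6, and between 5.68 and 18.2 CPM in PT, where the 7 values overlapped the HT range only through HT libraries 17 and 19. With all 42 libraries in the fit the feature was called HT-higher (log2 -3.63 ± 0.99 SE; edgeR's 2-fold test, adjusted p = 0.0156), and in the fit of the 14 anestrous libraries alone it was not (log2 -3.62; adjusted p = 0.183). Without library 19 it was called PT-higher (log2 2.04; adjusted p = 0.0310). PT was also higher in the luteal (2.30; edgeR adjusted p = 0.0456) and follicular phases (2.57; edgeR adjusted p = 0.0227). The group medians, 3.11 CPM in HT and 10.5 CPM in PT, stand in that order too.

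**Figure D4:**
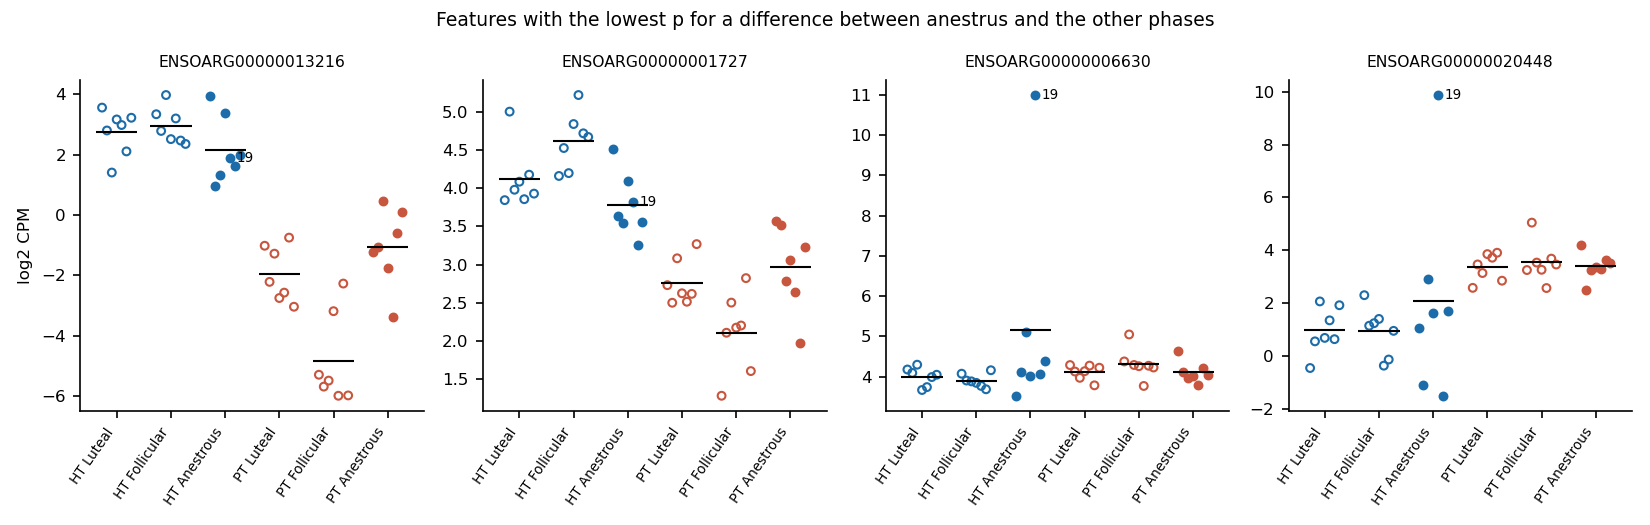
Log2 CPM of 4 features in all 42 libraries by tissue and phase, with filled points for anestrus, a line at each group's mean, and HT library 19 numbered. ENSOARG00000013216 and ENSOARG00000001727 show the narrowest gap between tissues in anestrus, and for ENSOARG00000006630 and ENSOARG00000020448 library 19 stands at 2046 and 936 CPM, above all other libraries.

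Placed between the tissue means of the luteal and follicular libraries, where 0 is the HT mean and 1 the PT mean, the anestrous libraries fell with their labelled tissue. The 7 HT libraries lay between -0.13 and 0.30 with a median of 0.01, and the 7 PT libraries between 0.90 and 1.11 with a median of 0.96. HT library 17 was the one at 0.30, and the next HT library was at 0.13. One follicular HT library lay further towards PT, at 0.36. Library 17 also had the largest share of its counts in the cycling PT-higher list, 3.57%, where the mean was 2.70 ± 0.57% in HT and 9.57 ± 0.65% in PT (SD, n = 7 each). The HT-higher list took 11.9 ± 2.97% of the counts in HT and 2.84 ± 0.38% in PT. The part that admixed tissue has in these positions was not tested, since no marker could be named.

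**Figure D5:**
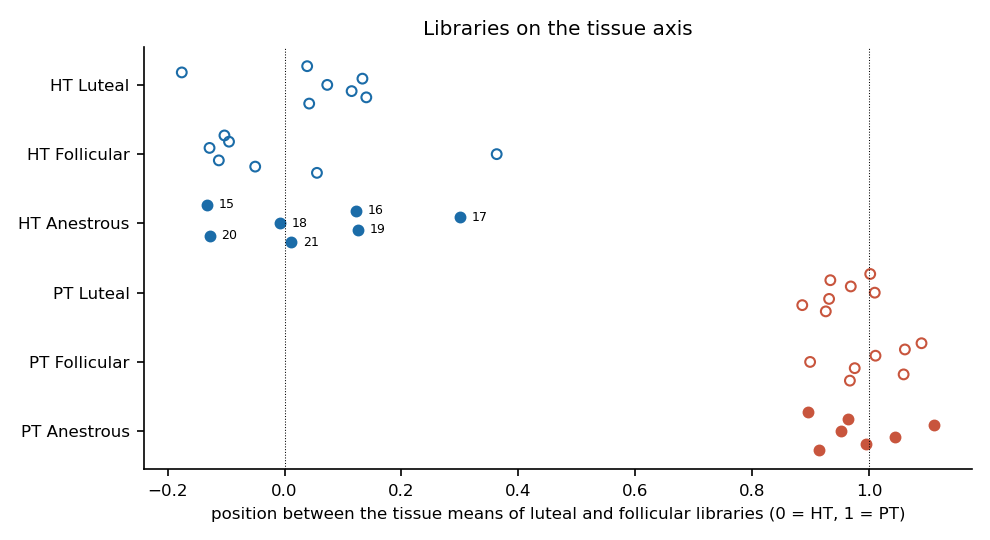
Position of each of 42 libraries between the mean HT profile (0) and the mean PT profile (1) of the luteal and follicular libraries, by group, with filled points for anestrus and HT anestrous libraries numbered. HT libraries in anestrus lie between -0.13 and 0.30 and PT libraries between 0.90 and 1.11.

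The hypothalamic libraries differed more among themselves than the PT libraries did. The mean distance of a library to the others of its group, as the root mean square difference of log2 CPM over features, was 1.40 ± 0.09 in HT and 1.15 ± 0.06 in PT (SD, n = 7 each), and 1.98 between libraries of different tissue. The difference of -0.25 had an exact two-sided permutation p of 0.000583 over all splits into 7 and 7 (Benjamini-Hochberg adjusted over 3 measures, 0.00175), and it lay between -0.29 and -0.19 when each library was left out in turn. The distances within a group share pairs of libraries and are not independent of each other. They were not computed anew for each split, so this p-value is not an exact test of a difference in spread.

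The wider spread of HT was found at most features. Among 9995 features with at least 5 CPM in both tissues, the SD of log2 CPM over 7 libraries had a median of 0.428 in HT and 0.242 in PT, and it was larger in HT for 83.7%. It was over 2 times larger in HT for 3990 features and in PT for 139. Library 15 took part in this, since without it the HT median was 0.332 and the share 70.6%, and the SD was over 2 times larger in HT for 2541 features and in PT for 338. In the luteal phase the medians were 0.326 and 0.262 (64.6% larger in HT) and in the follicular phase 0.279 and 0.269 (53.2%). The difference in spread between phases was not tested.

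The number of features with a count was close in both tissues, 18180 ± 692 in HT and 18195 ± 438 in PT (SD, n = 7 each; exact permutation p = 0.966). The 10 largest features took 31.97 ± 9.14% of the counts in HT and 24.7 ± 4.33% in PT. This difference of -7.23 percentage points did not pass (exact permutation p = 0.0851, adjusted 0.128), and without HT library 15 it was -10.1 points with an adjusted exact permutation p of 0.00962.

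The tissues shared 9 of their 10 largest features in anestrus. The largest in HT, ENSOARG00000000016, ran from 15735 to 90651 CPM in HT with a median of 75164 CPM, and from 23397 to 57051 CPM in PT with a median of 37426 CPM. HT library 15 held the lowest value of all 14. HT was higher by 0.73 on the log2 scale (edgeR adjusted p = 0.0422), below a 2-fold difference. In PT the largest feature was ENSOARG00000000035, at 42223 ± 13320 CPM there and 64115 ± 26098 CPM in HT (SD, n = 7 each; edgeR adjusted p = 0.102).

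One feature was among the 10 largest in PT only. ENSOARG00000009137 ran from 1261 to 59125 CPM in PT, with a median of 27960 CPM, and from 435 to 14960 CPM in HT, with a median of 6930 CPM. PT libraries 38 and 41 were at 1970 and 1261 CPM and overlapped the HT range, as did PT library 39 at 6834 CPM, while the other 4 were above every HT library. The difference did not pass (log2 1.98 ± 1.16 SE; edgeR adjusted p = 0.142). In the luteal and follicular phases the sign was the opposite, -0.54 and -3.07, and the shift of 3.79 ± 1.43 SE did not pass either (edgeR adjusted p = 0.671).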

How the data were processed

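The deposited data are raw read counts (whole numbers) for each sheep gene ID of Ensembl in 1 table, from total RNA sequenced on an Illumina instrument, per the labels' protocols. Per the submitters' processing notes, R 3.5.1, DESeq2, StringTie 1.3.5, HISAT2 2.1.0, SAMtools 1.7, Trimmomatic 0.38 and FastQC 0.11.5 were used, with no roles stated. Not given in the sources used here are the genome build, annotation, strand and handling of shared reads, which leaves features that overlap or resemble another gene uncertain. Of 27054 IDs, 3463 had no count, and there were 0 columns of no sample.

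The 42 libraries were fitted together in 6 groups in R 4.3.3 by edgeR 4.0.16 (robust two-sided quasi-likelihood tests; glmTreat for the 2-fold test; TMM; filterByExpr with a minimum count of 10; Benjamini-Hochberg threshold 0.05). The common biological coefficient of variation was 39.8%. Log2 CPM used a pseudocount of 0.5 counts. Values per library were compared by exact permutation. The tests were also run on simulated counts with known differences in a small part of the features and the same spread in all 6 groups. That simulation does not cover unequal spread between groups or a difference at most features.

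Alternatives were DESeq2 1.42.0, limma-voom with sample weights (limma 3.58.1), RLE scaling, other filters, a fit of the 14 libraries, a covariate (the share of the 10 largest features), leaving out the 20 largest features, and leaving out each library. Leaving out HT libraries 15, 17 and 19 together, the check of group medians and the spread without each library were added after seeing the data.

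Features named are the 2 per direction with the largest difference in mean CPM among non-overlapping 2-fold calls, the 2 per direction with the lowest p for a shift between anestrus and the other phases, and features named beside library make-up. The comparison, its libraries and these rules were chosen with earlier results of these data known. The planned lists of genes and cell type markers could not be used, since no ID could be paired with a name.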

Additional observations from a re-analysis of the deposited data

Results flagged for a closer look

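In 7 of 36 sets of 7 anestrous libraries examined, the highest or lowest library stood apart from the other 6 by Dixon's criterion at 95%. For normally distributed values in sets picked without regard to them, chance would mark about 1 in 20. Counts and CPM were taken without logs, and skewed values can be marked more often. The rate of 1 in 20 also does not hold for features named for their extreme values, nor are sets that share a library independent.

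Library size marked 2 of them. HT library 15 had 33586399 counts, where the next HT library had 25123805, and PT library 36 had 14649356, where the next PT library had 25019148. HT library 15 also had 19631 features with a count, against 18389 in the next.

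The other 4 were levels of features. HT library 19 held ENSOARG00000006630 at 2046 CPM and ENSOARG00000020448 at 936 CPM, where the next HT libraries were at 34.4 and 7.51 CPM. PT library 37 held ENSOARG00000013153 at 2985 CPM, with the next at 1746 CPM. PT library 42 held ENSOARG00000004374 at 115 CPM, with the next at 26.7 CPM. The calls of ENSOARG00000013153 and ENSOARG00000004374 held without these libraries (the log2 difference of ENSOARG00000004374 was -8.10 without PT library 42). The HT-higher calls of ENSOARG00000006630 and ENSOARG00000020448 did not hold without HT library 19.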

How the results depend on the processing

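The count of features that differed between the tissues ran from 8227 (fit of the 14 libraries) to 10582 (covariate) beside 9641, and the 2-fold count from 2010 (DESeq2) to 2999 (without HT library 17) beside 2769. Of the 2769 calls, DESeq2 shared 2010 and limma-voom 1979. The tests of a shift between anestrus and the other phases were the unstable ones. DESeq2 called 37 features against both phases, 7 against luteal and 31 against follicular, where edgeR called 0. Without HT libraries 15, 17 and 19 edgeR called 5, 3 and 44. Leaving out 1 library gave 0 to 33 against both phases, 0 to 0 against luteal and 0 to 47 against follicular, the highest counts without HT library 15. Against follicular it was 16, 18 and 17 without HT libraries 18, 20 and 21, and at most 2 without the others.

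ENSOARG00000020448 took the opposite sign in anestrus with DESeq2 (1.76), limma-voom (0.62), without HT library 19 (2.04) and without libraries 15, 17 and 19 (2.64), and its shift was 0.21 without those 3. With 1 library left out, its tissue difference ran from -3.85 to 2.04. Features at 0 in the other tissue numbered 9 in HT and 4 in PT at 0.5 CPM, and 0 and 0 at 5 CPM. The difference in features with a count ran from -84.4 to 256.9 with 1 library left out, and that in the share of the 10 largest features from -10.1 to -5.75. The cause was not tested, apart from library 19 for ENSOARG00000020448, whose value decides the sign.

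No paired analysis was possible because the groups compared share no library number and the labels tie no library to an ewe. Arms of 7 libraries and a median standard error of 0.298 limit the tests of a shift.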
